A study of Mus musculus with 3 samples.

Results

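The Ube2 genes encode the ubiquitin conjugating (E2) enzymes and were described here in mouse T-helper 1 (Th1) cells. All protein-coding genes whose GENCODE symbol starts with Ube2 were taken, which gave 37 of 21764 protein-coding genes and of 50600 genes in all. The study held 1 group of 3 RNA-seq libraries (biological replicates 1, 2 and 3) from primary Th1 cells of C57BL/6NJ mice, made by a CD4+ T cell differentiation protocol that the labels name, with 24 hr in the file headers. No other genotype, treatment or cell type was part of the samples used here. Sex and age were not given, and all 3 libraries carry the same donor entry. Nothing in the labels ties the replicates to separate mice or cultures. A p-value between libraries therefore speaks only of these samples, and asks whether they spread beyond counting error. Part of that spread may be technical. The p-value also depends on how many counts a gene has, so a low one does not mark the widest spread. In such bulk samples, fewer cells of a type and less RNA per cell cannot be told apart.

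Ubiquitin is activated by an E1 enzyme, passed to the catalytic cysteine of an E2 enzyme and attached to a protein with the help of an E3 ligase, and the E2 enzyme often decides which kind of chain is built. Some family members carry NEDD8, ISG15 or another modifier in place of ubiquitin, and UBE2V proteins lack the catalytic cysteine and act as partners of UBE2N. In T cells the pathway is known for signalling from the antigen receptor to NF-kappaB, for the limits it sets on activation and for the ordered destruction of mitotic proteins in dividing cells.

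Total counts of read pairs were 3553547, 2945353 and 3369468 in replicates 1, 2 and 3, of which 4267, 2426 and 3630 lay on Ube2 genes. A count of 0 allows up to 3 counts, or 0.844, 1.019 and 0.89 CPM (counts scaled to a common library total), and this floor covers counting error only. Of the T cell markers, Cd4 stood at 105 ± 29.7 and Trac at 196 ± 73.4 TPM (transcripts scaled to a common library total, mean ± SD, n = 3, as are all levels here). The Th1 markers Tbx21 (15, 11 and 8 counts), Ifng (2, 2 and 1) and Cxcr3 (2, 1 and 1) were few or at the floor, while Stat4 stood at 5.01 ± 1.87 TPM and Il12rb2, which is overlapped, at 14.8 ± 2.01. Ifng and Cxcr3, 2 of the 5 Th1 markers, thus did not exceed 3 counts in any library. Of the markers of other cells, Cd8a had 1 count in each library, Itgax had 0, 0 and 1, and Ncr1 and Lyz2, of NK and myeloid cells, had 0 counts in every library. Counts were made with a strand option in a workflow that the headers name as stranded, and the direction in which the library marks strand is not stated in the labels or headers. Genes whose exons share bases with an exon of an opposite-strand gene (called overlapped) were 16.2% of all genes and held 68%, 77.5% and 70.3% of the counts in replicates 1, 2 and 3. Each level below is a count of read pairs that the authors' strand option assigned to a gene. If the library marks strand the other way, those pairs come from RNA of the opposite strand, for members, partners and markers alike, and this was not tested.

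The family spanned levels from 0 to 79.1 TPM. Of the 37 genes 27 (73.0%) reached 1 TPM in every library and are called detected, against 41.2% of all protein-coding genes, and the median was 7.95 ± 2.29 TPM, against 0.386 ± 0.0703 TPM over all protein-coding genes. By mean level, 4 genes stood at 20 TPM or more, 11 from 10 to 20, 7 from 5 to 10, 7 from 1 to 5 and 8 under 1. The 3 highest, Ube2s, Ube2m and Ube2c, held 36.5% ± 4.68 of the TPM summed over the family, with the merged exons of a gene as its length. With the longest coding transcript as length, Ube2s, Ube2m and Ube2e1 were the 3 highest and held 52.6% ± 6.61, and Ube2c ranked 6. The sum with merged exons was 499, 311 and 431 TPM in replicates 1, 2 and 3. By position relative to the opposite strand, 7 members were overlapped, 8 shared no exon bases but lay within the span of a gene on the other strand (spanned), 10 had one within 5000 bases (near) and 12 had none of these (isolated). The median level was 12 ± 5.04 TPM for overlapped, 7.15 ± 1.92 for spanned, 16.6 ± 4.67 for near and 5.35 ± 1.72 for isolated members. Over all protein-coding genes these medians were 5.05 ± 0.977, 0.3 ± 0.0413, 1.63 ± 0.367 and 0 TPM, in the same order. The overlapped and near classes were thus the higher there as well.

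**Figure D1:**
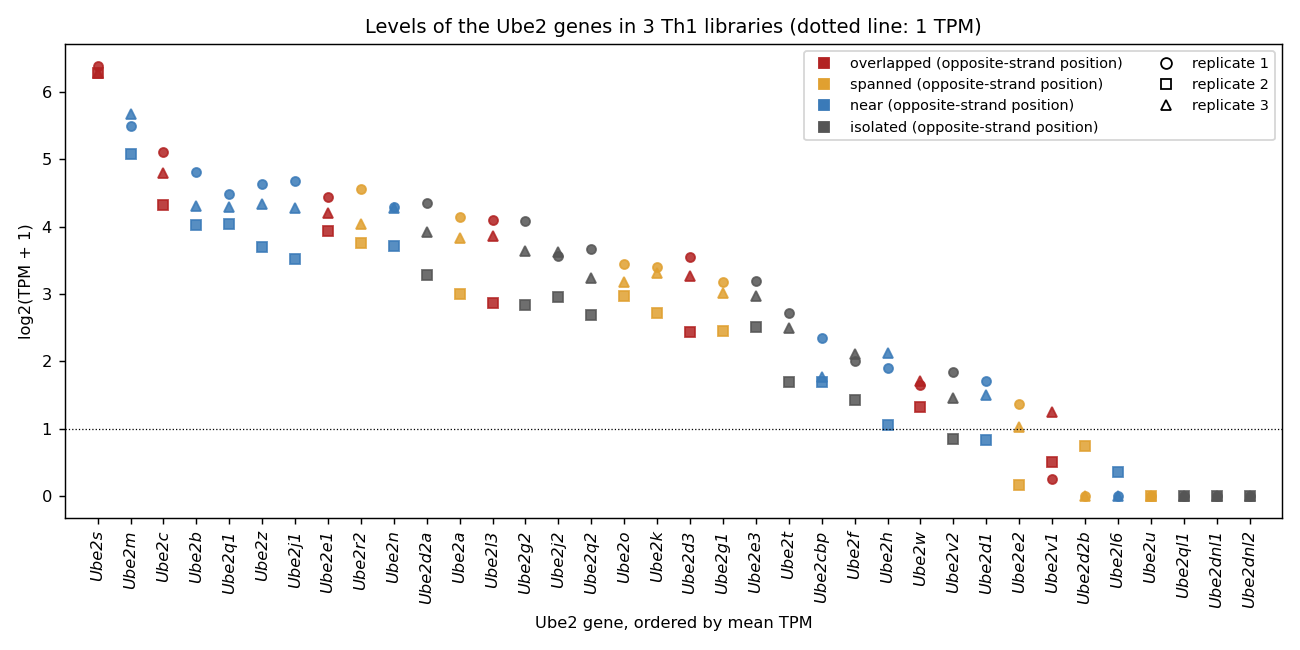
Level of 36 of the 37 Ube2 genes in the 3 Th1 libraries as log2(TPM + 1), ordered by mean TPM, with 1 point per replicate and the colour giving the position relative to opposite-strand genes. Ube2s stands at the top with 77.1 to 83.1 TPM, 4 genes are at 0 in every library, and replicate 2 is the lowest point of each of the 26 genes shown that reach 1 TPM throughout.

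The genes of the E2 enzymes of mitosis were among the highest, and both, Ube2s and Ube2c, are overlapped. Ube2s and Ube2c serve the anaphase-promoting complex (APC/C), the E3 ligase of mitosis: UBE2C starts ubiquitin chains on its targets and UBE2S extends them. Ube2c (ENSMUSG00000001403, chromosome 2, 164769898 to 164778822) had 165, 86 and 130 counts, or 33.4, 18.9 and 26.8 TPM, so that replicate 1 was the highest. Ube2s (ENSMUSG00000060860, mm10 chromosome 7, 4794546 to 4812590) had 812, 693 and 742 counts, the most of the family, or 83.1, 77.1 and 77.2 TPM. Its TPM values were above those of Ube2c in each library. As a log2 ratio of (TPM + 1) within each library, Ube2c stood at -1.59 ± 0.35 relative to Ube2s and was the lower in 3 of 3 libraries. With the longest coding transcript as length, over protein-coding genes only, this ratio was -3.41 ± 0.36. Ube2c ranked 3 by merged exons, 6 by transcript length and 10 by counts. Ube2t, whose product works with the E3 ligase FANCL in DNA crosslink repair, was lower, with 51, 19 and 42 counts and 4.15 ± 1.71 TPM. Its level depended on the length used, with rank 23 by merged exons (4832 bases) and rank 13 by the longest coding transcript (1116 bases; 31.6 ± 10.9 TPM over protein-coding genes only).

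The sequence before the start of Ube2c held 6 CCAAT boxes, the element bound by NF-Y in many promoters of mitotic genes. These runs were picked after the motif counts had been seen. That of Ube2c is shown with that of Ube2t, another gene of dividing cells, and with those of Ube2m and Ube2f, the NEDD8 pair, which lay far apart in level. Windows were the 250 bases before a RefSeq start site (GRCm38.p6, the same assembly as mm10), and in the printed runs, read 5′ to 3′ along the gene's strand, capitals mark CCAAT on either strand (ATTGG on the strand shown) and TTTGAA, the core of the cell cycle genes homology region. The Ube2c run is chr2:164769679-164769897 on the plus strand and stops before the first annotated exon, that of Ube2t is chr1:134962315-134962564 on the plus strand, that of Ube2m is chr7:13038276-13038525 on the minus strand and that of Ube2f is chr1:91250054-91250303 on the plus strand.
Ube2c: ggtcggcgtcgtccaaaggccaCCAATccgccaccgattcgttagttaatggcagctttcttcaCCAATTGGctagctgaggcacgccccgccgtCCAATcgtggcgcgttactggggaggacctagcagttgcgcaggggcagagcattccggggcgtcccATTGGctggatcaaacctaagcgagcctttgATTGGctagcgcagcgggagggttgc
Ube2t: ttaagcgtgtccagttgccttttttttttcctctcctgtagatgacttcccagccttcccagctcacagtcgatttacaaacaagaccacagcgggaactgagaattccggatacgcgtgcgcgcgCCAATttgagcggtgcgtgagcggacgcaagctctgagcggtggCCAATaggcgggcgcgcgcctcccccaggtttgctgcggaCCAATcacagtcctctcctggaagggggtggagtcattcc
Ube2m: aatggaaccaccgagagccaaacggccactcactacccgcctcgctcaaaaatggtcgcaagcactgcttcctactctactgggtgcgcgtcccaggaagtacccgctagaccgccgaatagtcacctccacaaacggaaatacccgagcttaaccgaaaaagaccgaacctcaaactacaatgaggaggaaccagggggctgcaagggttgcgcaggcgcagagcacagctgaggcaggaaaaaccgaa
Ube2f: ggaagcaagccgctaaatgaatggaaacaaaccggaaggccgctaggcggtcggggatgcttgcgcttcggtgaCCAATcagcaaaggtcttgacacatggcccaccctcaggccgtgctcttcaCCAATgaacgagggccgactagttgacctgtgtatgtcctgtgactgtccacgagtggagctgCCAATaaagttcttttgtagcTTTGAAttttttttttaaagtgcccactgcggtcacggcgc

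CCAAT, searched on both strands, was found 6 times in the Ube2c window, of which a pair overlaps in 1 palindrome, 3 times each in those of Ube2t and Ube2f, and not in that of Ube2m. Over all 32851 windows in the RefSeq table, 33.8% held at least 1 CCAAT, 2.79% held 3 or more and 0.0578% (19 windows) held 6 or more. Windows were found for 30 of the 37 members, 41 windows in all, and CCAAT was in 9 of them, TTTGAA in 4 (16% of all windows, both strands) and the core of the interferon-stimulated response element in 1, that of Ube2dnl1 (2.98% of all windows, both strands). The TTTGAA of Ube2c lies in the end of its window, which is annotated exon and is not printed. A match or its absence is a description of these windows.

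Both NEDD8 enzymes were detected, at levels far apart. Ube2m, whose product loads NEDD8 on cullin ligases, stood second in the family with 198, 135 and 220 counts, or 44.2, 32.8 and 50 TPM (ENSMUSG00000005575, chromosome 7, 13035120 to 13038275). Ube2f, the other NEDD8 enzyme, which serves CUL5 with RNF7, had 51, 26 and 55 counts, or 3.04, 1.68 and 3.33 TPM. The log2 ratio of Ube2m to Ube2f was 3.57 ± 0.08, the higher in 3 of 3 libraries.

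The RAD6 pair, Ube2a and Ube2b, encodes the enzymes that work with RAD18 on the replication clamp and with RNF20 and RNF40 on histone H2B. Ube2a had 72, 28 and 56 counts, or 16.7, 7.05 and 13.2 TPM, and Ube2b had 109, 57 and 75 counts, or 27, 15.3 and 18.9 TPM. The log2 ratio of Ube2a to Ube2b was -0.72 ± 0.27, the lower in 3 of 3 libraries, although the ranges of both genes over libraries overlap.

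The UBE2D and UBE2E enzymes serve many RING E3 ligases, and for this class the gene length used mattered. Ube2d2a had 92, 38 and 66 counts, or 19.5, 8.75 and 14.2 TPM. Ube2d3 had 497, 188 and 394 counts, the second most of the family, but stood at 10.7, 4.39 and 8.61 TPM, with merged exons of 24499 bases. With the longest coding transcript as length (3833 bases), a choice made after the values were seen, it ranked 4 of 37, against 20 with merged exons. The log2 ratio of Ube2d2a to Ube2d3 was 0.78 ± 0.10 with merged exons and -1.77 ± 0.14 with transcript lengths, so its direction is set by the length used. Log2 ratios with transcript lengths use TPM over protein-coding genes only. Ube2d1 was low with 19, 6 and 15 counts, or 1.64 ± 0.77 TPM, and below Ube2d3 under both lengths (log2 ratio -1.73 ± 0.12 and -3.22 ± 0.07). Ube2d2b had 0, 2 and 0 counts. Of the UBE2E genes, Ube2e1 stood at 20.7, 14.4 and 17.4 TPM, Ube2e3 at 8.15, 4.69 and 6.83 TPM and Ube2e2 at 1.58, 0.122 and 1.03 TPM. Ube2e1 exceeded Ube2e3 by 1.30 ± 0.11 as a log2 ratio in 3 of 3 libraries, and their ranges do not overlap. Ube2w, which attaches ubiquitin to protein N termini, stood at 1.97 ± 0.41 TPM.

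**Figure D2:**
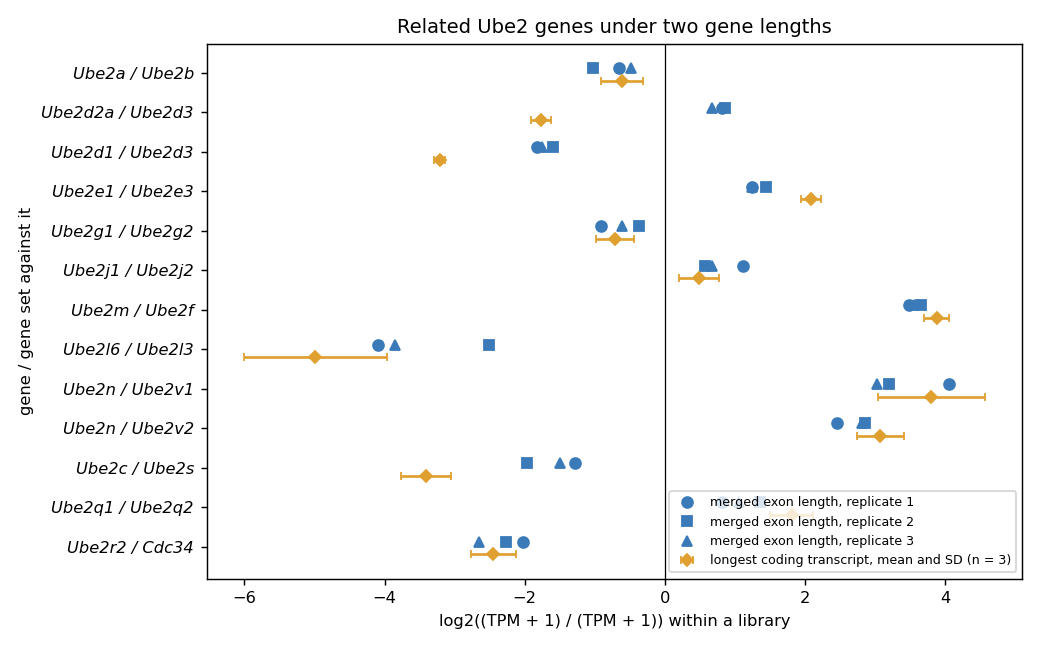
Log2 ratios of (TPM + 1) between 13 pairs of related genes within each library; blue points are the 3 replicates with merged exon length, and orange diamonds with bars are the mean and SD over the 3 libraries with the longest coding transcript as length. The diamonds rest on TPM over protein-coding genes only, the points on TPM over all genes. Only Ube2d2a over Ube2d3 lies on opposite sides of 0 under the lengths, at 0.78 and -1.77.

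Ube2n, which encodes UBC13, the enzyme of the chains that signal to NF-kappaB, had 150, 89 and 145 counts, or 18.7, 12.1 and 18.4 TPM (ENSMUSG00000074781, chromosome 10, 95515145 to 95545657). Its cofactor genes had few counts: Ube2v1 had 1, 2 and 7, or 0.193, 0.42 and 1.38 TPM, and Ube2v2 had 21, 6 and 14, or 2.58, 0.803 and 1.75 TPM. The log2 ratio of Ube2n was 3.42 ± 0.54 to Ube2v1 and 2.71 ± 0.22 to Ube2v2, the higher in 3 of 3 libraries each. For Ube2v1, 61.5% of its exon bases (1673 bases) are also exons of the same-strand gene Gm20431, which had 0 counts in every library. The header shows no option that counts a read pair for more than 1 gene, and the part of this shared stretch in the low count was not tested.

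Of the UBE2L pair, Ube2l3 serves HECT and RBR ligases, among them the linear chain complex, and Ube2l6 is the interferon-induced enzyme of ISG15. Ube2l6 had 0, 1 and 0 counts and lay at the floor. Ube2l3 had 171, 62 and 141 counts, or 16.1, 6.33 and 13.5 TPM. The log2 ratio of Ube2l6 to Ube2l3 (-3.49 ± 0.85) rests on the pseudocount. Isg15 itself had 0, 1 and 3 counts, and Uba7, which encodes the E1 enzyme of ISG15, had 7, 7 and 6.

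All 4 genes of the endoplasmic reticulum and its degradation pathway were detected. Ube2j1, a membrane-anchored enzyme, had 165, 65 and 122 counts, or 24.6, 10.5 and 18.5 TPM, and the related Ube2j2 stood at 10.9, 6.75 and 11.3 TPM. The log2 ratio of Ube2j1 to Ube2j2 was 0.78 ± 0.29. Ube2g1 stood at 8.04, 4.5 and 7.13 TPM and Ube2g2, an enzyme of the same degradation pathway, at 16, 6.12 and 11.5 TPM, with a log2 ratio of Ube2g1 to Ube2g2 of -0.63 ± 0.27. Both ratios kept their sign in 3 of 3 libraries, while the ranges of each pair overlap. Ube2g2 shares 6.83% of its exon bases with Gm49325 and 3.46% with Mir1930 on the same strand, each with 0 counts in every library.

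Among the remaining enzymes, Ube2r2, a partner of SCF ligases, stood at 22.6, 12.6 and 15.5 TPM. Cdc34, which encodes the other SCF enzyme and falls outside the symbol rule, stood at 87.4 ± 20.3 TPM, and the log2 ratio of Ube2r2 to Cdc34 was -2.32 ± 0.32. Ube2z, which takes ubiquitin from the E1 enzyme UBA6, stood at 24, 12 and 19.3 TPM. Ube2q1 stood at 21.4, 15.5 and 18.6 TPM and Ube2q2 at 11.7, 5.45 and 8.45 TPM (log2 ratio 1.07 ± 0.27, with ranges that do not overlap). Ube2k stood at 8.02 ± 2.13 TPM and Ube2o, a large enzyme that acts without a separate E3 ligase, at 8.29 ± 1.58. Ube2h stood at 2.4 ± 1.18 TPM with 25, 9 and 30 counts. Ube2cbp, whose name marks a binding protein of UBE2C and not an E2 enzyme, had 14, 7 and 8 counts. Ube2u, Ube2ql1, Ube2dnl1 and Ube2dnl2 had 0 counts in every library.

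Counts on the genes of the other strand were set beside those on the Ube2 genes that they overlap. The 7 overlapped members had 1841, 1156 and 1580 counts in all, and their 8 opposite-strand genes had 12043, 11890 and 12297. In 5 of the 7, Ube2d3, Ube2e1, Ube2l3, Ube2s and Ube2w, the opposite genes had more counts in every library. The gene ENSMUSG00000085425 (chromosome 16, 17152630 to 17153704), for which the annotation used here gives no symbol or type, lies wholly within the exons of Ube2l3, with all of its 778 exon bases shared. It had 4117, 4012 and 4073 counts, or 2845 ± 90.9 TPM, rank 41 of all genes, while those bases are 13.9% of the Ube2l3 exons. Its count was 24.1, 64.7 and 28.9 times that of Ube2l3 (opposite gene over Ube2 gene). Ydjc, which also overlaps the end of Ube2l3, over 1670 bases, had 1293, 993 and 1094 counts.

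Ube2e1 had 175, 112 and 145 counts, and Nkiras1, which encodes an inhibitor of NF-kappaB activation and shares 718 exon bases with it tail to tail, had 4219, 4663 and 4432. The count of Nkiras1 was 24.1, 41.6 and 30.6 times that of Ube2e1. Ube2d3, with 497, 188 and 394 counts, shares 198 bases at its start with the antisense gene 4930539J05Rik, head to head, which had 1052, 1245 and 1320 counts and exceeded Ube2d3 2.12, 6.62 and 3.35 times. Ube2s, with 812, 693 and 742 counts, and Rpl28, a ribosomal protein gene that shares 183 exon bases with it, were closer, with 1258, 882 and 1245 counts on Rpl28 and ratios of 1.55, 1.27 and 1.68. Ube2w had 20, 13 and 21 counts and Gm38342, opposite its start, 83, 83 and 121. Ube2c had 165, 86 and 130 counts and was the higher of its pair: Tnnc2, a muscle troponin gene that shares 592 bases with it, had 16, 8 and 8 counts, 0.0838 ± 0.0194 times those of Ube2c. Ube2v1 (1, 2 and 7 counts) and Gm11476 (5, 4 and 4 counts) were both low. Where exons are shared, read pairs cannot be assigned to one strand's gene without knowing that the strand option fits the library, so the counts of these 7 genes are uncertain, beside the doubt on strand that touches every level.

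**Figure D3:**
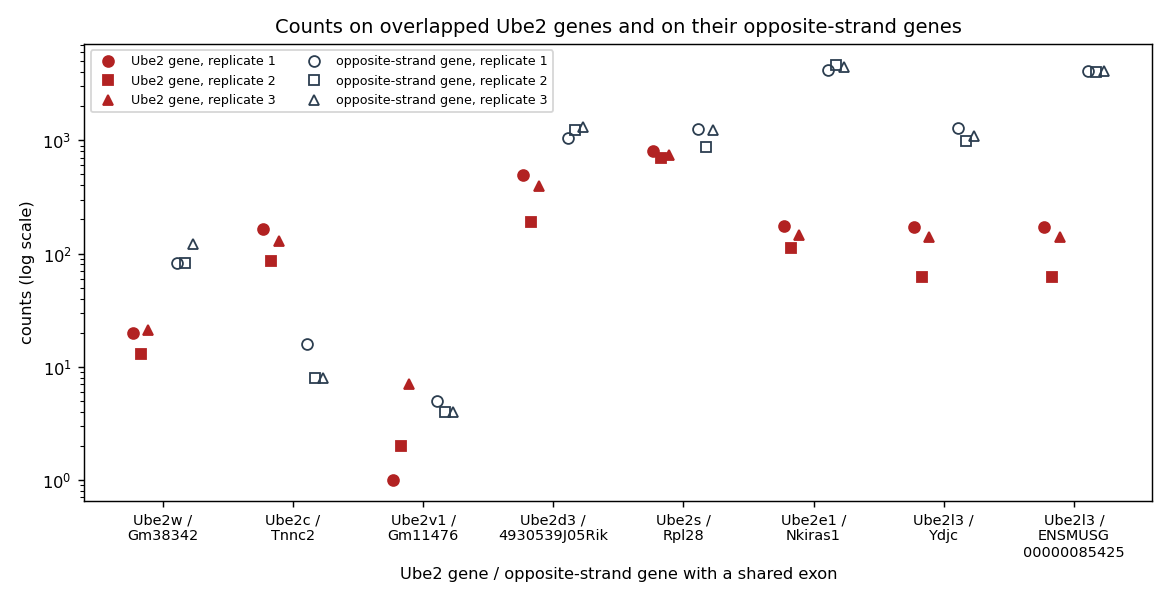
Counts on a log scale in each of the 3 libraries for the 7 overlapped Ube2 genes (filled red, left) and for each opposite-strand gene with a shared exon (open, right); Ube2l3 appears with each of its 2 opposite genes. Nkiras1 and ENSMUSG00000085425 lie between 4012 and 4663 counts, while Ube2e1 and Ube2l3 lie between 62 and 175.

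The libraries were compared next, by asking which genes varied beyond counting error. Of the 37 members 26 had counts enough for the test and 11 did not. Ube2s, Ube2d3, Ube2l3 and Ube2j1 varied (4 of 26), against 35.6% of the 10216 genes tested, at library sizes scaled by edgeR's TMM method (chi-square test against Poisson error, Benjamini-Hochberg adjusted over all genes tested). Of the 8620 protein-coding genes tested, 2499 (29.0%) varied. Overlapped genes gave 53% calls in the background of all genes and the other genes 22.7%. Among protein-coding genes these shares were 42.1% and 21.8%. Of the overlapped members tested 3 of 6 varied, and of the others 1 of 20.

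In each of these genes replicate 2 was the highest or the lowest library. Ube2d3 had 125, 74.6 and 112 TMM-scaled CPM, a ratio of highest to lowest of 1.68 (chi-square test, edgeR scaling, adjusted p = 5.8e-08). Ube2l3 had 43.1, 24.6 and 40 scaled CPM, a ratio of 1.75 (adjusted p = 0.0023), and Ube2j1 41.6, 25.8 and 34.6, a ratio of 1.61 (adjusted p = 0.014). In these 3 genes, of the 4 called among 26 tested, replicate 2 was the lowest. Over all genes, 1126 of the 3641 calls were lowest in replicate 2, which is 11.0% of the 10216 genes tested. Among protein-coding genes 1112 of the 2499 calls were lowest in replicate 2, and among those without overlap 873 of 1216. Ube2s was the reverse, with 205, 275 and 210 scaled CPM and replicate 2 the highest (ratio 1.34, adjusted p = 3.5e-08). A call depends on the counts as well: Ube2h, with 25, 9 and 30 counts, had a ratio of 2.38 and was not called (chi-square test, edgeR scaling, adjusted p = 0.13). On the same scale, the genes opposite Ube2l3, ENSMUSG00000085425 (1038, 1592 and 1154 scaled CPM) and Ydjc (326.1, 394 and 310.0), were highest in replicate 2. So were 4930539J05Rik, opposite Ube2d3 (265, 494 and 374), and Nkiras1, opposite Ube2e1 (1064, 1850 and 1256). Rpl28, opposite Ube2s, had 317, 349.9 and 353 scaled CPM and was lowest in replicate 1. The part of these neighbours in the differences was not tested.

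As TPM, which takes no account of this scaling, each of the 27 detected members was lowest in replicate 2, against 77.9% of all detected protein-coding genes and 86.4% of those without overlap. Summed over the 30 members without overlap, the level was 333, 188 and 284 TPM, and over all protein-coding genes without overlap 188100, 121800 and 171400 TPM. Both sums were lowest in replicate 2. DESeq2 size factors called the same 4 members, against 34.7% of all genes, and total counts with no scaling called 17, against 51.7%. Ube2s was not among the 17: its unscaled level was 229, 235 and 220 CPM (chi-square test on total counts, adjusted p = 0.53). Replicate 2 was still its highest library, but its call and the size of the difference rest on the scaling. With TMM scaling taken from genes without overlap, Ube2d3, Ube2l3 and Ube2s were called again, Ube2j1 was not (chi-square test, adjusted p = 0.166) and Ube2m was (adjusted p = 0.049), against 33.3% of all genes. Of the 8620 protein-coding genes tested, 2150 were called with this scaling. Without replicate 2 no member varied (chi-square test with edgeR scaling; 2 members at an unadjusted p under 0.05), against 9.04% of all genes, and without replicates 1 and 3 in turn 3 and 6 varied, against 24.4% and 37.0%. With edgeR's common dispersion added to the error (biological coefficient of variation 0.18), no member passed, none at an unadjusted p under 0.05 either, against 0.0881% of all genes. That dispersion was estimated from the spread between these same 3 libraries. Few calls could therefore be made in this setting, and nothing is concluded from their absence.

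**Figure D4:**
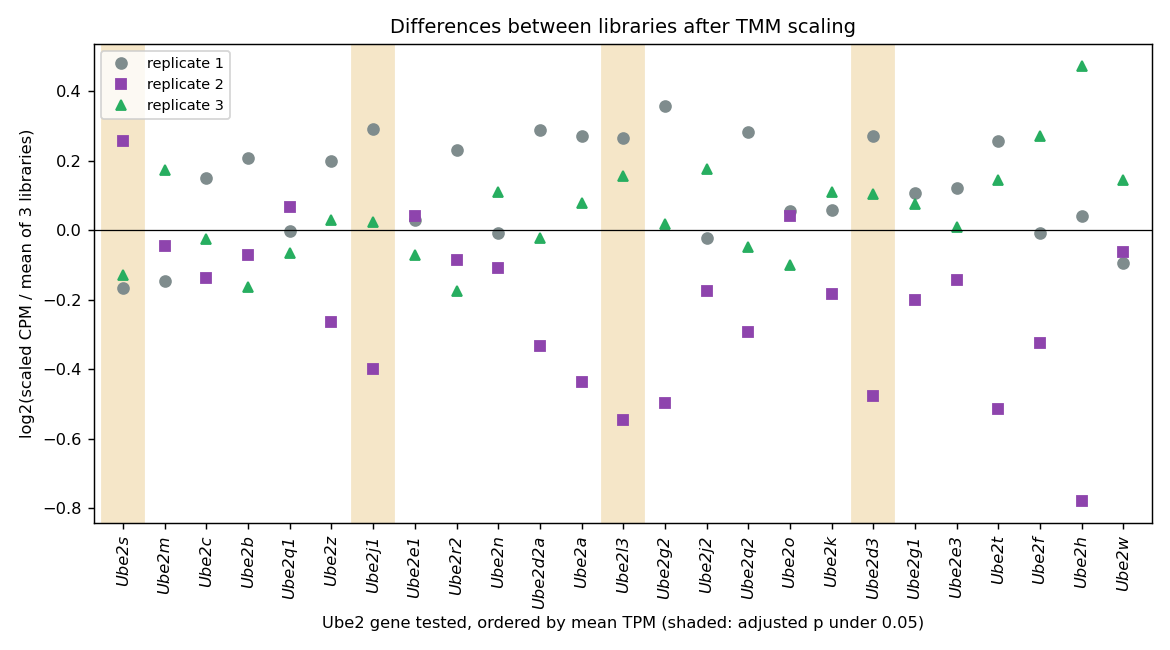
Level in each library relative to the mean of the 3, as log2 of TMM-scaled CPM, for 25 of the 26 Ube2 genes tested, ordered by mean TPM; shading marks the 4 genes with adjusted p under 0.05. Replicate 2 is the lowest point in 17 of the 25 and the highest for Ube2s. On the same scale it was the lowest in 4293 of the 8620 protein-coding genes tested. Among those without overlap it was the lowest in 3329 of 5576.

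The other parts of the pathway were read beside the E2 genes. Of 13 modifier genes, for ubiquitin and its relatives, 12 reached 1 TPM in every library (median 20.5 ± 2.92 TPM). The highest were Fau and Rps27a, which encode a ubiquitin-like protein and ubiquitin fused to ribosomal proteins, at 539 ± 54.6 and 340 ± 77.5 TPM (Rps27a opposite Clhc1), the polyubiquitin gene Ubb at 173 ± 35.2 and Nedd8 at 172 ± 24.3. Of 10 E1 genes 9 were detected (median 9.7 ± 2.87 TPM). Uba1, the main ubiquitin E1 gene, stood at 72.8 ± 21.2 TPM, the SUMO E1 subunit genes Sae1 and Uba2 at 46.4 ± 12.6 and 40.4 ± 13.2, and the autophagy E1 gene Atg7 at 46 ± 0.561. Of 8 other E2 and E2-like genes 6 were detected, led by Cdc34 and followed by Ufc1, the UFM1 enzyme gene, at 21.1 ± 3.9 TPM, Aktip at 18.4 ± 1.52 (opposite Rbl2) and the autophagy gene Atg3 at 15.4 ± 2.82.

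The partners of the mitotic and repair enzymes were detected in most cases. Of 15 APC/C genes 14 were detected (median 11.2 ± 3.19 TPM), with Cdc23 at 199 ± 11.5 (opposite Kif20a), the coactivator gene Cdc20 at 50.3 ± 18.6 (opposite Elovl1), Anapc13 at 45.3 ± 10.3 (opposite Cep63) and Anapc5 at 37.7 ± 11.4. Of 9 partner genes of RAD6, FANCL and the ER enzymes 8 were detected, with Fancl at 61.7 ± 3.74 (opposite Vrk2), Rnf20 at 22.9 ± 5.59, Syvn1 at 18.9 ± 3.26 (opposite Mrpl49) and Rnf40 at 14.2 ± 3.62 (opposite 1700120K04Rik and Gm44759). All 11 core genes of cullin ligases were detected (median 17.5 ± 6.54 TPM), led by Skp1a at 50.7 ± 19, Cul3 at 39 ± 10.7, Cul1 at 37.6 ± 11.4 (opposite A930035D04Rik) and Rnf7 at 26.1 ± 11.5.

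Of 18 E3 genes known in T cells or broadly 16 were detected (median 6.37 ± 2.11 TPM), the highest being Rbck1, a subunit of the linear chain complex, at 21.5 ± 5.32, Huwe1 at 19.1 ± 4.64, Dtx1 at 12.5 ± 0.704 and March5 at 11.7 ± 3.2. Rnf128, known as GRAIL and linked to T cell anergy, had 0 counts in every library. All 15 deubiquitinase and SUMO protease genes were detected (median 14 ± 3.75 TPM), led by Uchl3 at 91.4 ± 36.3, Uchl5 at 36.5 ± 10.9, Otulin at 35.6 ± 6.1 and Senp3 at 32.1 ± 10.3. Between libraries, 9 of 15 deubiquitinase, 9 of 14 APC/C, 6 of 11 cullin, 6 of 12 modifier, 5 of 17 E3, 4 of 9 E1, 3 of 6 other E2 and 2 of 8 RAD6, FANCL and ER partner genes tested varied by the same test, against 35.6% of all genes tested. Of these calls, replicate 2 was the lowest in 9, 6, 5, 2, 4, 3, 1 and 0, in the same order. Over all genes tested it was the lowest in 1126 of the 3641 calls. Of the 8620 protein-coding genes tested, 2499 (29.0%) were called, 1112 of them lowest in replicate 2. Of the 5576 without overlap, 1216 were called, 873 of them lowest in replicate 2. With scaling from genes without overlap, the calls were 2, 7, 2, 7, 2, 3, 2 and 2, against 33.3% of all genes and 2150 of the 8620 protein-coding genes.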

How the data were processed

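RNA-seq of 3 Th1 libraries was used, labelled total RNA sequencing with a protocol named for polyA-selected RNA. Per the file headers, the authors made the deposited counts of read pairs per gene with featureCounts 1.4.6-p4 on exons of GENCODE M13, with both ends aligned and strand option 1. The labels name mm10 as assembly. Alignment files carry star2 in their names, with no version stated.

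Symbols came from GENCODE M21 by identifier (50376 of 50600 matched). TPM and CPM were computed here from counts and merged exon lengths. With 1 group, edgeR 4.0.16 had no contrast to test, so variation between libraries used a chi-square test (2 degrees of freedom) over genes passing filterByExpr, at TMM-scaled sizes, adjusted at 0.05, and tested on simulated counts. Alternatives were DESeq2 1.42.0 size factors, other scalings, filters, errors, lengths and leaving out libraries. R 4.3.3 and Python 3.11.15 were used. Coordinates are those of the deposited files. Log2 ratios use a pseudocount of 1 TPM, and an exact sign-flip test over 3 libraries cannot go below p = 0.25, so none was run.

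Members were named, with library values for the 12 highest, the pairs, the called and the overlapped genes, and of each partner list the 4 highest and those at 0. 1 Ube2 gene with its pair and 1 cell marker are not reported here, although the gene stays in the counts over the family. The members and lists were chosen with earlier results of these data known.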

Additional observations from a re-analysis of the deposited data

How the results depend on the processing

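Leaving out a library moved 4 low levels by over 1.5 times: Ube2v1 stood at 0.307 TPM without replicate 3, Ube2e2 at 0.577 without replicate 1, and Ube2l6 and Ube2d2b at 0 without replicate 2. Detected members numbered 19 at 5 TPM, 25 at 10 counts, 24 at 1 FPKM and 27 to 30 without 1 replicate. DESeq2 size factors and no count filter each gave 4 called members. Other settings moved values. Of the members, 17 were called at total counts with no scaling (51.7% of all genes), 0 with the common dispersion (9 genes in all), and 0 to 6 without 1 replicate; over all genes the calls were 3641, and 971 to 3795 without 1 replicate. The median level was 19.5 TPM over protein-coding genes only, 4.41 as FPKM and 22.2 with transcript lengths, also over protein-coding genes only.

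A pseudocount of 0.1 gave log2 ratios of -2.23 for Ube2d1 over Ube2d3, 1.42 for Ube2e1 over Ube2e3, 3.96 for Ube2m over Ube2f, -6.16 for Ube2l6 over Ube2l3, 4.73 for Ube2n over Ube2v1 and 3.29 for Ube2n over Ube2v2; without one, the values were -2.31, 1.44, 4.02, none, 5.06 and 3.38. The longest coding transcript as length, added after the values were seen, turned Ube2d2a over Ube2d3 to -1.77 and gave -3.22 for Ube2d1 over Ube2d3, 2.08 for Ube2e1 over Ube2e3, 0.49 for Ube2j1 over Ube2j2, 3.87 for Ube2m over Ube2f, -4.99 for Ube2l6 over Ube2l3, 3.07 for Ube2n over Ube2v2, -3.41 for Ube2c over Ube2s and 1.81 for Ube2q1 over Ube2q2. These ratios with transcript lengths were taken from TPM over protein-coding genes only, on which a pseudocount of 1 TPM weighs less. The parts of length and of this scale in the moved values were not separated. Merged exons are far longer than the longest coding transcript for Ube2d3, Ube2t and Ube2s. No paired analysis was possible because there is 1 group. Depth limits genes under about 10 counts.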

Other observations

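Of the 6 other genes with Ube2 symbols, 4 had 0 counts in every library: the processed pseudogenes Ube2l3-ps1, Ube2nl and Ube2d4 and the antisense gene Ube2uos. Ube2n-ps1, a processed pseudogene of Ube2n on chromosome 5, had 6, 11 and 15 counts, or 12.7 ± 5.38 TPM. Its parent Ube2n had 150, 89 and 145 counts, so the pseudogene was lowest in replicate 1 and the parent in replicate 2. Ube2d-ps, a transcribed pseudogene on chromosome 11, had 28, 26 and 29 counts, or 4.85 ± 0.135 TPM. Of the 10 members near an opposite-strand gene, Ube2z had 182, 84 and 144 counts, and Snf8, 2 bases from it and tail to tail, had 121, 104 and 117. Ube2m had 198, 135 and 220 counts, and Trim28, 4085 bases from it and tail to tail, had 780, 354 and 607 counts.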
